A study of Komagataella pastoris with 3 samples.

Results

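GTH1 and HXT1 are a high-affinity and a low-affinity glucose transporter gene of the yeast Pichia pastoris. Their messenger RNA was followed over the late hours of a glucose culture. The 2 genes were taken from the 5040 of the deposited table by their locus tags, PAS_chr1-3_0011 for GTH1 and PAS_chr1-4_0570 for HXT1, and both were found. The table lists tags without names, so the names and roles come with the choice of the genes and not from the data. Pichia pastoris, now usually classified as Komagataella phaffii, is a methylotrophic yeast used to make recombinant proteins. The strain was GS115, a histidine auxotroph whose genotype the labels give as wild type. All groups shared the strain and the regime: cells were inoculated into 50 mL of YPD, which holds yeast extract, peptone and 2% glucose, and shaken at 30 °C. Cells were collected after 24, 36 and 48 h of culture, with 1 library per time point. No sample had another genotype or medium, and the amount of glucose left at each time is not given in the sources used here.

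Yeasts take up glucose through membrane carriers of the sugar transporter family, and they exchange these carriers as the sugar outside changes. In Saccharomyces cerevisiae, low-affinity carriers are made when glucose is plentiful, and high-affinity carriers, which are repressed by plentiful glucose, are made when it is scarce. In Pichia pastoris, HXT1 is known as a low-affinity carrier expressed with abundant glucose. GTH1 is known as a high-affinity carrier whose promoter is strongly active when glucose is limiting, a property used to drive the production of recombinant proteins without methanol.

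The transcript of the high-affinity carrier was at an ordinary level at 24 and 36 h and among the most abundant of the cell population at 48 h. That of the low-affinity carrier peaked at 36 h. The 24, 36 and 48 h libraries gave GTH1 levels of 109, 57.2 and 1703 FPKM. FPKM gives sequenced fragments per kilobase of a gene, relative to all fragments mapped in its library. It is a level per length and can be compared between genes of a library. GTH1 was thus far higher in the 48 h library than in the others, with its lowest value at 36 h. For HXT1 they gave 4507, 13453 and 1577 FPKM. Its order of levels was the reverse of that of GTH1, highest at 36 h, then 24 h, then 48 h. As each time has 1 library, no level has an error, no neighbours in either order could be tested, and an effect of time cannot be told apart from a difference between libraries. In such bulk RNA, a change in the number of cells that express a gene and a change in its RNA per cell cannot be told apart either.

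**Figure D1:**
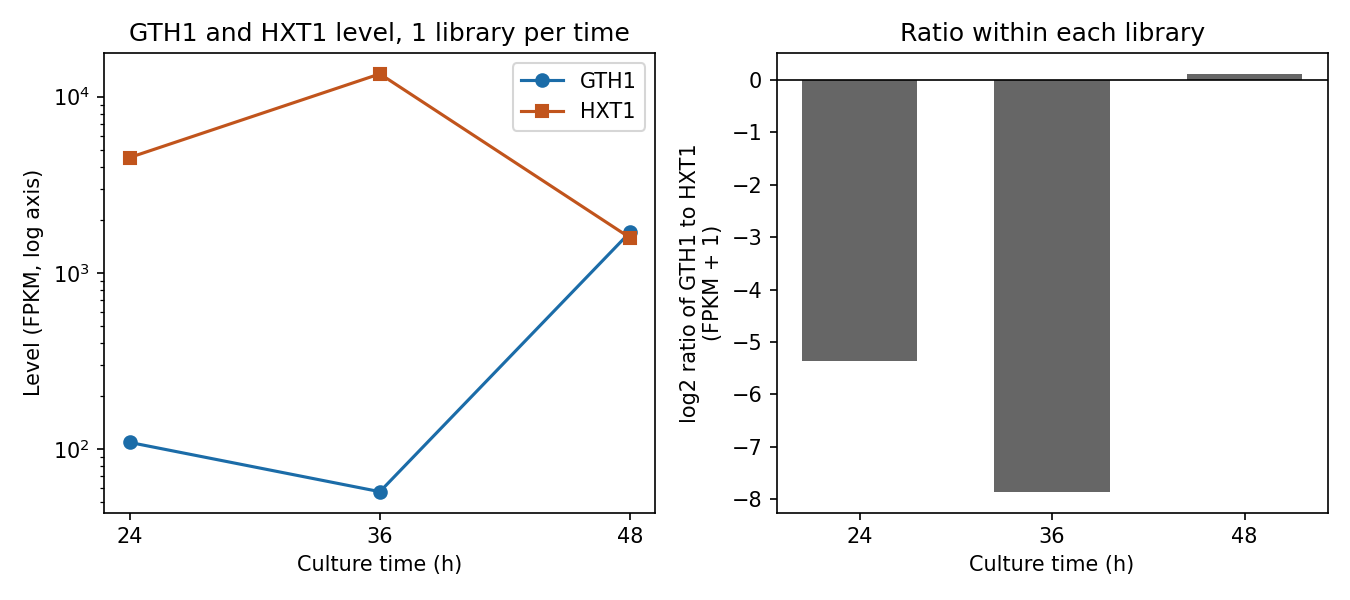
Left, level of GTH1 and HXT1 in FPKM (log axis) by culture time in h, each point 1 library. Right, the log2 ratio of GTH1 to HXT1 on the FPKM + 1 scale within each library. The lines meet at 48 h, where GTH1 had 1703 FPKM and HXT1 1577 FPKM, and the ratio is -5.36 for 24 h, -7.85 for 36 h and 0.11 for 48 h.

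Set against all genes of each library, GTH1 stood above 73.4% of genes at 24 h and above 56.3% at 36 h, and near the top at 48 h. Counted from the highest level of 5040 genes, GTH1 held ranks 1342, 2205 and 51 in the libraries of 24, 36 and 48 h. Its level was 2.01 times that of the median gene at 24 h, 1.19 times in the 36 h library and 33.1 times in the 48 h library. HXT1 remained in the upper part of the distribution throughout. It held ranks 12, 4 and 55, and was 83.0, 279 and 30.7 times the median gene of these libraries. Even in its lowest library, at 48 h, HXT1 had a higher level than 98.9% of the genes. HXT1 made up 0.517%, 1.71% and 0.207% of all FPKM at the successive times, and the most abundant gene of the 36 h library had 16999.5 FPKM. The corresponding shares of GTH1 were 0.0125%, 0.00728% and 0.224% in the libraries of 24, 36 and 48 h.

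**Figure D2:**
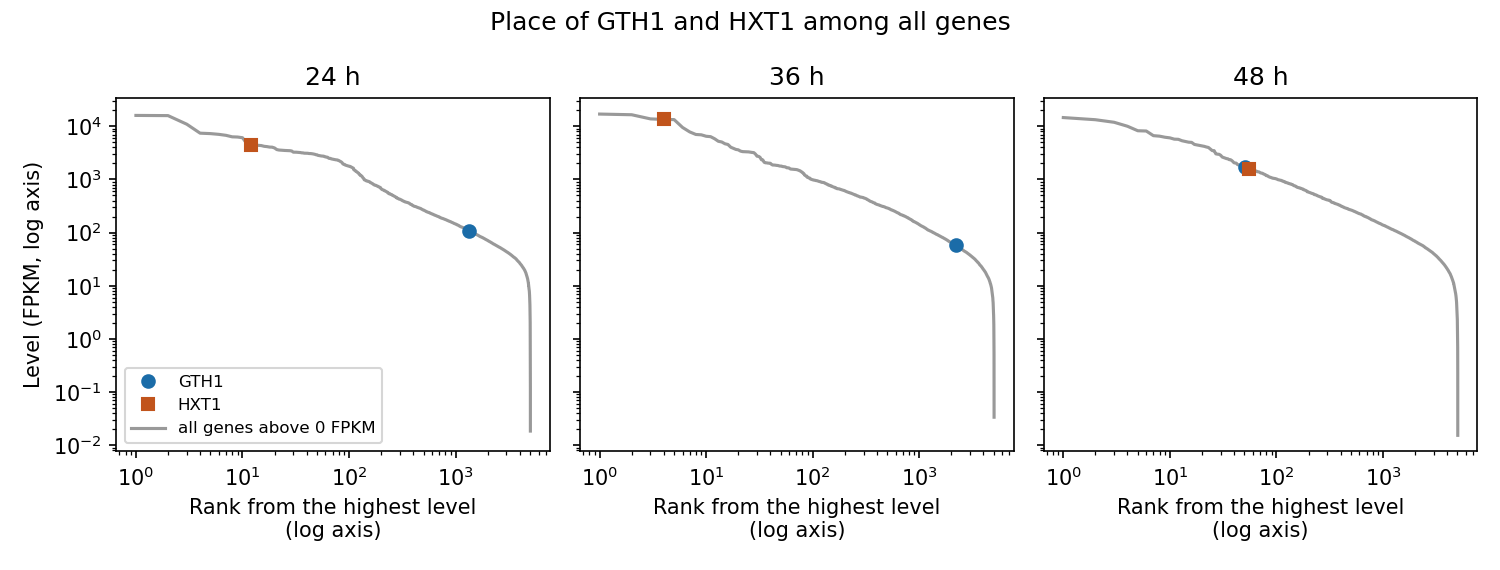
Level in FPKM against rank from the highest level, both on log axes, for all genes above 0 FPKM in the library of each time point (grey line), with GTH1 and HXT1 marked. GTH1 lies at ranks 1342, 2205 and 51 at 24, 36 and 48 h, and HXT1 at ranks 12, 4 and 55.

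The ratio of both transcripts within a library does not depend on how libraries are scaled against each other. GTH1 was at 0.0242 times the level of HXT1 in the 24 h library, 0.00425 times in the 36 h library and 1.08 times in the 48 h library. Of the FPKM of the pair, GTH1 held 2.36%, then 0.423%, then 51.9% at the successive times. On the scale of log2(FPKM + 1), the ratio of GTH1 to HXT1 changed by -2.50 for 36 h against 24 h, since GTH1 was lower and HXT1 higher. It changed by 7.96 for 48 h against 36 h, a 254-fold difference in the ratio, to which both genes added in opposite directions. Over the whole course, 48 h against 24 h, the change was 5.47, or 44.7-fold. The sum of both transcripts followed HXT1 and amounted to 4616, 13510 and 3280 FPKM in the libraries of 24, 36 and 48 h. At 48 h the pair thus held 0.431% of all FPKM, against 1.72% at 36 h, although the GTH1 level was the higher one at 48 h.

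The first comparison set 36 h against 24 h. GTH1 had 57.2 FPKM in the 36 h library and 109 FPKM in that of 24 h, a difference of -0.92 on the log2(FPKM + 1) scale, or 1.91-fold lower, which is short of the 2-fold rule of size used in place of a test. Fold differences are ratios of FPKM, without the added 1. A decrease as large or larger was seen in 21.1% of the 5028 genes that reached 1 FPKM in any library, so the change of GTH1 was an ordinary one for that interval. HXT1 had 13453 FPKM in the 36 h library and 4507 FPKM in that of 24 h, a difference of 1.58, or 2.98-fold higher. The 2-fold rule was passed upwards by 9.47% of genes and downwards by 19.4%. By size of increase HXT1 held place 216, so 4.30% of genes had an increase at least as large. The median gene differed by -0.21, and relative to it the difference was -0.71 for GTH1 and 1.78 for HXT1. Scaling the libraries by the median of their ratios moved the balance of all genes from 476 higher and 973 lower to 647 and 729.

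How often abundant transcripts showed an increase like that of HXT1 depended on how they were chosen. Of the 138 genes that reached 1000 FPKM in the 24 h library, 10 passed the 2-fold rule upwards by 36 h, HXT1 among them, and 88 downwards. Of the 98 genes that reached 1000 FPKM in the 36 h library, HXT1 included, 50 passed it upwards and 5 downwards. HXT1 had the second highest level of the first 10 at 36 h. Of these 10 genes, 4 passed the rule downwards for 48 h against 36 h and likewise 4 did so for 48 h against 24 h, HXT1 in both cases. Choosing genes by a high value in a library favours lower values elsewhere, and the counts describe the place of HXT1 and no trend.

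The second comparison, 48 h against 36 h, held the largest differences of both genes. GTH1 had 1703 FPKM in the 48 h library and 57.2 FPKM in that of 36 h, a difference of 4.87, or 29.8-fold higher. Only 8 genes of the 5028 had a larger increase, and 0.636% of genes were at least 8-fold higher at 48 h. HXT1 had 1577 FPKM in the 48 h library and 13453 FPKM in that of 36 h, a difference of -3.09, or 8.53-fold lower. By size of decrease it held place 48 of 5028, where 1.09% of genes were at least 8-fold lower. The 2-fold rule was passed upwards by 13.5% of genes and downwards by 13%. The median gene differed by 0.03, so the scaling of these libraries hardly enters the values.

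Genes of a like mean level were also compared, where the mean includes the libraries compared. GTH1 was in the ninth of 10 equal classes of genes by mean log2 level, and its increase for 48 h against 36 h was the highest of the 503 genes of that class. In that class 9.94% of genes passed the rule upwards and 23.3% downwards, with a median difference of -0.21. HXT1 was in the highest class, where 26.8% of 503 genes passed it downwards and 11.9% upwards. Its decrease held place 17 in the class, whose differences ranged from -5.93 to 6.08. In the other comparisons the transporters stood out less from their classes. For 36 h against 24 h, HXT1 held place 77 by increase in its class, of which 25.6% passed the rule upwards. GTH1 held place 68 by decrease in its class, of which 11.9% passed downwards. For 48 h against 24 h, GTH1 held place 15 by increase, with 24.1% of its class passing upwards. HXT1 held place 153 by decrease, with 39.2% of its class passing downwards.

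A step like that of GTH1 from an ordinary to a high level was taken by few genes. The limits used for it were set around the levels of GTH1 itself, so the count describes its place and tests nothing. Of the 3687 genes under 100 FPKM at 36 h, 4 had at least 1000 FPKM at 48 h, which is 0.108%. GTH1 had the second highest 48 h level of these 4 genes, which ranged from 1087 to 1915 FPKM. It was also the only one of them with a lower level at 36 h than at 24 h. At 24 h the 4 genes had between 8.97 and 109 FPKM, with GTH1 at the upper end.

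Over the whole course, 48 h against 24 h, GTH1 had 1703 FPKM in the later library and 109 FPKM in the earlier, a difference of 3.95, or 15.6-fold higher. It held place 75 by size of increase, and 2.96% of genes were at least 8-fold higher. HXT1 had 1577 FPKM in the 48 h library and 4507 FPKM in that of 24 h, a difference of -1.51, or 2.86-fold lower. A decrease as large was seen in 17.0% of genes. The 2-fold rule was passed downwards by 28% of genes and upwards by 18.2%. Relative to the median gene, at -0.25, the difference was 4.21 for GTH1 and -1.26 for HXT1. With median-of-ratios scaling the counts of all genes were 1115 higher and 1137 lower, in place of 914 and 1409. The comparisons share libraries in pairs, so the difference over the whole course is the sum of those of the intervals and adds no independent value.

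**Figure D3:**
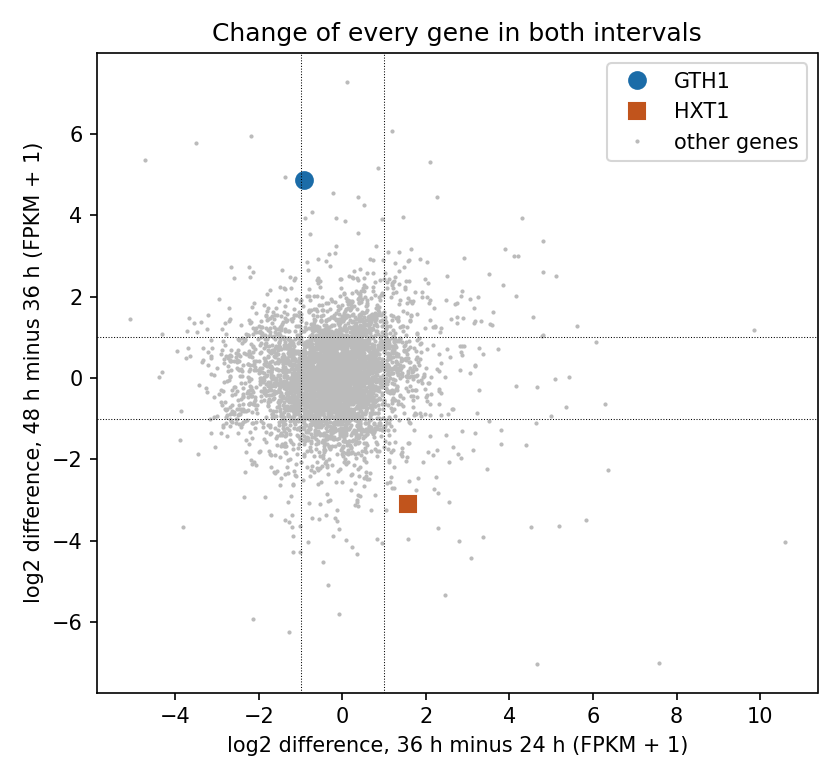
The log2(FPKM + 1) difference of each of 5028 genes from the first interval, 36 h against 24 h (x axis), and the second, 48 h against 36 h (y axis), with dotted lines at the 2-fold rule. GTH1 lies at -0.92 and 4.87 and HXT1 at 1.58 and -3.09. Both axes use the 36 h library.

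Placed by the 2-fold rule in both intervals, the transporters belonged to different profiles. GTH1 changed by less than 2-fold until 36 h and was higher at 48 h, as were 417 genes or 8.29% of those examined. With a first difference of -0.92, GTH1 was close to the rule, so its place in this profile is borderline. These 417 genes had median levels of 33.1, 33.4 and 97.3 FPKM at 24, 36 and 48 h. GTH1 had the third largest increase for 48 h against 36 h among them and the fourth highest level at 48 h. HXT1 was higher at 36 h and then lower, as were 81 genes or 1.61%. HXT1 was the most abundant of these 81 genes at 24 h and at 36 h and had the second highest level at 48 h. Its shares of the group's summed FPKM were 24.0%, 14.9% and 9.08% at the successive times.

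The genes with the most similar time courses were sought by the distance between log2(FPKM + 1) profiles centred on their mean, over the 3 libraries and among 4950 other genes that reached 10 FPKM in any library and had no value of 0. A distance of 0 means the same proportional course of FPKM + 1. At low levels the added 1 makes this differ from the course of FPKM. Nearest to HXT1 was PAS_chr1-4_0561 at a distance of 0.09, with 1484, 4549 and 489 FPKM in the libraries of 24, 36 and 48 h. Its log2 differences were 1.62 in the first interval and -3.22 in the second. Next was PAS_chr2-1_0887 at 0.13, with 1766, 5229 and 687 FPKM at the successive times. In all, 10 genes lay within 0.5 of HXT1 and 66 within 1, where the median distance was 2.35. Of these 66 genes, 1 exceeded HXT1 in level at 36 h, and their median level was 149, 311 and 58.5 FPKM at the successive times.

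GTH1 had fewer genes close to it. The nearest was PAS_chr3_1063 at a distance of 0.35, with 13.2, 4.48 and 166 FPKM. The next was PAS_chr3_0348 at 0.48, with 15.9, 13.4 and 335 FPKM. These were the 2 genes within 0.5 of GTH1, and 8 genes lay within 1, where the median distance was 3.78. All 8 had a lower level than GTH1 in each library, with a median of 402 FPKM and a highest value of 830 FPKM at 48 h. The table gives no name or function for the 4 tags. With 3 libraries a profile has few ways to differ, so many genes can come close to a common shape. GTH1 and HXT1 themselves were 5.76 apart, and 4931 of the 4950 genes were nearer to HXT1 than GTH1 was.

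**Figure D4:**
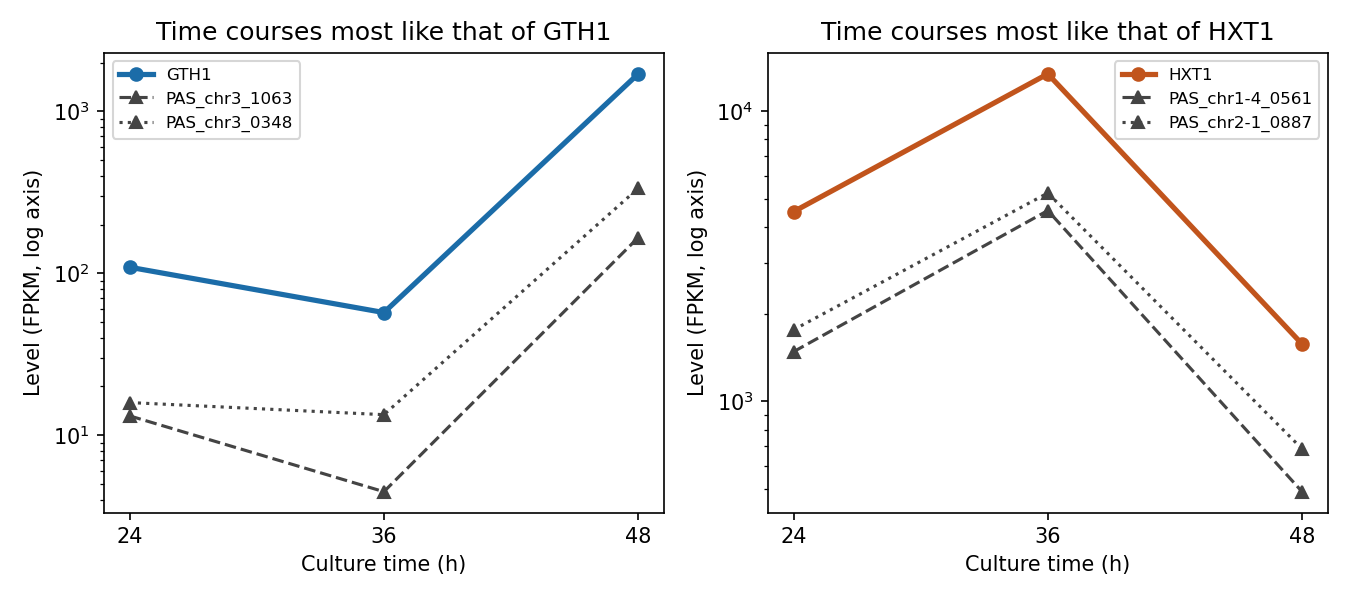
Level in FPKM (log axis) against culture time in h for GTH1 (left) and HXT1 (right), each with the 2 genes of the nearest centred log2 profile, 1 library per time. The courses near HXT1 run almost parallel to it at distances of 0.09 and 0.13, and those near GTH1 follow less closely at 0.35 and 0.48.

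By their tags both transporters lie on chromosome 1, GTH1 on segment 3 and HXT1 on segment 4, each with its own count of tags. The gene whose tag comes just before that of GTH1 had 18.7, 26.8 and 38.5 FPKM over the 3 libraries. Its difference for 48 h against 36 h was 0.51, so it did not share the late step of GTH1. No gene is listed under the tag number just after that of GTH1. The gene just before HXT1 had 869, 1057 and 1123 FPKM at the successive times and was within 2-fold in both intervals. The gene just after HXT1 had 26.0, 17.9 and 7.19 FPKM, with a log2 difference of -1.21 for 48 h against 36 h. The gene nearest to HXT1 in its time course, PAS_chr1-4_0561, has a tag number 9 below that of HXT1. Of the 8 listed genes between them, 0 had the profile of HXT1 and 5 were within 2-fold in both intervals. Over a wider stretch, chosen after the values were seen, 4 of the 38 genes with tag numbers within 20 of HXT1 had its profile, PAS_chr1-4_0561 among them, or 10.5% against 1.61% of all genes. Around GTH1 3 of 23 genes had its profile, or 13.0% against 8.29% of all genes. The profile of HXT1 was not particular to the stretch around HXT1. Among the 23 genes within the same span of GTH1 it was seen in PAS_chr1-3_0014, PAS_chr1-3_0015, PAS_chr1-3_0016, PAS_chr1-3_0017 and PAS_chr1-3_0023. These are a larger share of their stretch than the 10.5% around HXT1 or the 1.61% of all genes. The shares of both stretches rest on few genes and were not tested.

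The libraries of 24, 36 and 48 h summed to 871921, 785727 and 760684 FPKM, with medians over genes of 54.3, 48.2 and 51.4 FPKM. Their depth is unknown. Of all genes, 11 were listed at 0 in some library, and 0 of the transporters were. The sugar transporter family has several similar members in yeasts, and the sources used here do not say how reads shared between similar genes were counted. The part of such reads in the levels of GTH1 and HXT1 was not tested.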

How the data were processed

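Messenger RNA was sequenced from GS115 cells collected at 24, 36 and 48 h, 1 library each. Per the labels' protocols, cells were broken by bead beating and a VAHTS Universal V6 kit was used for the libraries. CASAVA and HISAT2 2.1.0 are named in the submitters' processing notes. How FPKM was computed, and with which build, annotation, strandedness and filters, is not given in the sources used here. FPKM is what the authors deposited, 1 value per gene and library, per the file headers. Columns were matched to times by the codes in the sample titles.

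Differences were computed on log2(FPKM + 1), a scale that understates changes at low levels. A filter kept 5028 genes, those that reached 1 FPKM in any library, and removed 12. Without replicates no test was possible, and a 2-fold rule of size took its place. For each transporter the 2 genes of nearest profile are named. A list of glucose uptake and phosphorylation genes was to be taken by name. The reference table covers 5305 genes of Komagataella pastoris ATCC 28485, 0 of the 5040 tags matched it, and the list had no members. Sequences were not used here for the same reason. Whole reads were sought in the 19 to 34 genes that both libraries compared put under 3 FPKM. The best scale made 17.6% to 31.6% of their ratios match, to 0.2%, a ratio of whole numbers up to 8. The median share over the scales tried was 2.94% to 5.26%. Larger whole numbers were not tried, so this search did not recover reads, and depth is unknown. Alternatives were pseudocounts of 0.1 and 10, no filter or one at 10 FPKM, median-of-ratios scaling, a 4-fold rule and trimmed-mean scaling, which left out 30% of ratios and 5% of levels at either end. Steps were tried on simulated data with planted 4-fold changes and an assumed noise. Without replicates that noise could not be checked, so the trial concerns only the working of the steps. The genes, limits and lists were chosen with earlier results of these data known. Analyses used Python 3.11.15, numpy 2.4.6, pandas 2.3.3 and matplotlib 3.10.9.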

Additional observations from a re-analysis of the deposited data

How the results depend on the processing

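The direction of the 12 log2 values of GTH1, HXT1 and their ratio was the same in all 42 alternatives run, and 40 of these left them on the same side of the rule of size. Much of this was fixed in advance. The 4-fold rule keeps the same value, and a pseudocount cannot reverse a difference between 2 levels. Direction could change only with the scalings or, for the changes of the ratio, with the pseudocounts. With the 4-fold rule, HXT1 no longer passed in the first interval (1.58) or over the whole course (-1.51), which is by construction. Over pseudocounts and scalings the difference of GTH1 lay between -0.93 and -0.68 for 36 h against 24 h. It lay between 4.67 and 4.92 in the second interval and between 3.85 and 4.21 over the whole course. That of HXT1 lay between 1.58 and 1.82, between -3.09 and -3.05, and between -1.51 and -1.26, in the same order. Of 42 alternative counts of all genes, 36 were within 1.5 times the reported count. The others were those of the 4-fold rule, with 131 higher and 261 lower genes in the first interval, 142 and 149 in the second, and 341 and 498 over the whole course. The 2 genes nearest to HXT1 were the same with pseudocounts of 0.1 and 10, whereas 1 of the 2 nearest to GTH1 was replaced under each. No paired analysis was possible because no time point was replicated, and no replicate could be left out for the same reason. Unknown depth limits the values of GTH1 at 24 and 36 h more than those of HXT1, which are higher.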
